A study of Mus musculus with 12 samples.

Results

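Glycosyltransferases build the sugar coat of the gut epithelium. The genes described here are those of 11 enzyme families named B3galt, B3gnt, B4galt, B4galnt, Fut, Galnt, Gcnt, St3gal, St6gal, St6galnac and St8sia followed by a number. A gene was taken where a feature of the array was paired with that 1 symbol, and where a gene had several such features the feature with the highest mean was used, whatever its change. This gave 72 of the 19938 genes tested. By role, 17 start O-linked chains (Galnt), 5 branch them (Gcnt), 19 extend chains (B3galt, B3gnt, B4galt), 4 add N-acetylgalactosamine at chain ends (B4galnt), 7 add fucose (Fut) and 20 add sialic acid (6 St3gal, 2 St6gal, 6 St6galnac and 6 St8sia). B4galt2 was paired only with features that list several genes and was not used, and Fut1 was not analysed here.

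Total RNA was measured in the duodenum of strain 129 mice of mixed sex at postnatal days 15 and 30, in wild type mice and in mice without the Onecut-2 gene (Onecut2, which encodes a DNA-binding regulator with a cut domain). The groups comprised 3 arrays each, 4 groups in all, and an array held pooled RNA of 5 to 8 mice, untreated in all groups. The replicates are separate pools, so their spread is smaller than that between single animals. The labels do not limit the deletion to a cell type, and they name the tissue as duodenum, not as isolated epithelium.

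Glycan chains on mucins and on membrane proteins and lipids are built in the Golgi apparatus, sugar by sugar. Galactose and N-acetylglucosamine lengthen and branch a chain, and sialic acid or fucose at its end usually stops it and decides which lectins, microbes and toxins can bind. In rodents the gut surface is known to pass from a sialic-acid-rich state in suckling pups to a fucose-rich state after weaning.

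Onecut2 itself was lower on every knockout array than on every wild type array, by 1.50 at day 15 and by 1.36 at day 30 on the log2 scale. Array medians lay between 7.20 and 7.25. Enterocyte markers had a mean log2 value per array of 12.35 to 12.53 over all arrays. Pancreas acinar markers were also bright, at 12.65 to 13.66, and 0 of their 7 genes passed in any of the comparisons by limma (0 to 3 at an unadjusted p under 0.05). At day 15 this list averaged 13.20 to 13.31 on wild type arrays and 12.65 to 13.17 on knockout arrays, with a median difference of -0.34. At day 30 the ranges overlapped, at 12.98 to 13.66 and 12.73 to 13.20, with a median of -0.32. The levels of other cells moved with age: the T cell list averaged 6.56 to 6.67 on wild type arrays at day 15 and 8.26 to 8.34 at day 30, with 10 of 10 genes higher, and the B and plasma cell list went from 6.49 to 6.62 up to 7.96 to 8.07, with 6 of 7 higher. The smooth muscle list went from 10.57 to 10.65 down to 9.94 to 10.09, with 10 of 10 lower. The suckling enterocyte list went from 10.53 to 10.87 down to 7.92 to 8.22, with 4 of 4 lower. The weaned enterocyte list went from 9.71 to 10.17 up to 11.29 to 11.34 (3 of 3 higher), and the Paneth cell list from 9.16 to 9.43 up to 10.65 to 10.68 (6 of 6 higher). The part of these cells and states in the changes below was not tested, and in RNA of whole tissue fewer cells of a type and less RNA per cell cannot be told apart.

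The sequences that follow are promoter windows from RefSeq (assembly GRCm38.p6), each running from 250 bases before to 50 bases after an annotated start and written 5′ to 3′ on the gene's strand. They belong to the gene with the largest fall with age (St3gal5), the gene whose rise with age in wild type had the smallest p (B3gnt3), and the gene that passed the test between genotypes at both ages (St3gal6, with 2 annotated starts). Capitals mark matches on either strand to letters known from binding sites: ATTGAT for ONECUT factors, AGATAA for the GATA family, CAAAGTCCA for HNF4 and GGGCGG for Sp factors. The windows lie at chr6:72097358-72097657 on the plus strand for St3gal5, chr8:71701751-71702050 on the minus strand for B3gnt3, and chr16:58524204-58524503 and chr16:58523377-58523676 on the minus strand for St3gal6 start 1 and start 2.
St3gal5: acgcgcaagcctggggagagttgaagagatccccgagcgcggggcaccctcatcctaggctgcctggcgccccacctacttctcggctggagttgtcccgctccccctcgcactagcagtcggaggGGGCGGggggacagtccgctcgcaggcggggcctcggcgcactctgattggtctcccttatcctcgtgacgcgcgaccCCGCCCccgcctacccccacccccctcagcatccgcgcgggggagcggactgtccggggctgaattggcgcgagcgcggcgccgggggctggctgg
B3gnt3: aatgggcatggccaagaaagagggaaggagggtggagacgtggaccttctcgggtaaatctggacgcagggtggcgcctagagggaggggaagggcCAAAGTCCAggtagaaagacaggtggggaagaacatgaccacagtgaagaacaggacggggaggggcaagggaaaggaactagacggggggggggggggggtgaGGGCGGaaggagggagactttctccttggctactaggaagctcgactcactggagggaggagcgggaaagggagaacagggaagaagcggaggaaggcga
St3gal6 start 1: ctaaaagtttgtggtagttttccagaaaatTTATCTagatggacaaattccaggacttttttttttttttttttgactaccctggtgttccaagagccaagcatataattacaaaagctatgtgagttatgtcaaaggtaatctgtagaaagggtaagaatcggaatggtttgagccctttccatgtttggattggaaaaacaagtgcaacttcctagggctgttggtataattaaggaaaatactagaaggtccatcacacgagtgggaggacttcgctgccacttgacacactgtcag
St3gal6 start 2: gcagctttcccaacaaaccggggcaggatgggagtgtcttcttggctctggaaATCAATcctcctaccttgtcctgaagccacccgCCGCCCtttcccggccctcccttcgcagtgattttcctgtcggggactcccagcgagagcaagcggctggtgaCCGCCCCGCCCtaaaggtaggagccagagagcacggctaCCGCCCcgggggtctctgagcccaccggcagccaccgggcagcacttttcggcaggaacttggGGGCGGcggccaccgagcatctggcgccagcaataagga
The St3gal5 window held 2 GGGCGG matches and none of the other letters searched. The B3gnt3 window held 1 CAAAGTCCA and 1 GGGCGG match. For St3gal6, the window of start 1 held 1 AGATAA match, and that of start 2 held 1 ATTGAT match (as ATCAAT, the other strand) and 5 GGGCGG matches, of which 2 overlap. Over the 72 windows found for 52 of the 72 genes, ATTGAT was present in 2.78% against 7.54% of all 32851 windows of this length. GGGCGG was present in 54.2% against 35.7%, AGATAA in 8.33% against 11.2%, and CAAAGTCCA in 1.39% against 0.475%. TTTATNG (CDX factors) was present in 5.56% against 10.9%, and ATCGAT, a second ONECUT string, in 0 of the 72 windows against 0.925% of all windows. The printed windows of St3gal5, B3gnt3, St3gal6 start 1 and St3gal6 start 2 were 72.7%, 60.3%, 38.7% and 64.7% G or C. The median over all windows was 52.7%, and the shares above were not adjusted for base content. A match is a string of letters and not a measured binding site.

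The first comparison asked how the duodenum changes from day 15 to day 30 in wild type mice. Most sialyltransferases of the St3gal family fell, led by St3gal5, while all 4 capping enzymes, 8 of 19 extension enzymes and 3 of 7 fucosyltransferases rose, with B3galt5, Fut2 and B3gnt3 the largest rises. Of the 72 genes, 35 (48.6%) passed the test (limma, Benjamini-Hochberg adjusted p under 0.05 over all genes), against 29.3% of all genes tested. There were 22 higher at day 30 (against 12.3% of all genes) and 13 lower (against 17.0%). On 41 of the 72 genes the 3 arrays of one age all lay above those of the other, which holds for 43.8% of all genes. Changes of at least 1 on the log2 scale were found in 11 genes (15.3%), against 2.06% of all genes. The median change over the 72 genes was 0.06, beside 0.02 over all genes. With arrays centred on their medians the split was 27 higher and 9 lower. With Xist, which fell with age in wild type, as a covariate it was 18 higher and 7 lower.

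**Figure D1:**
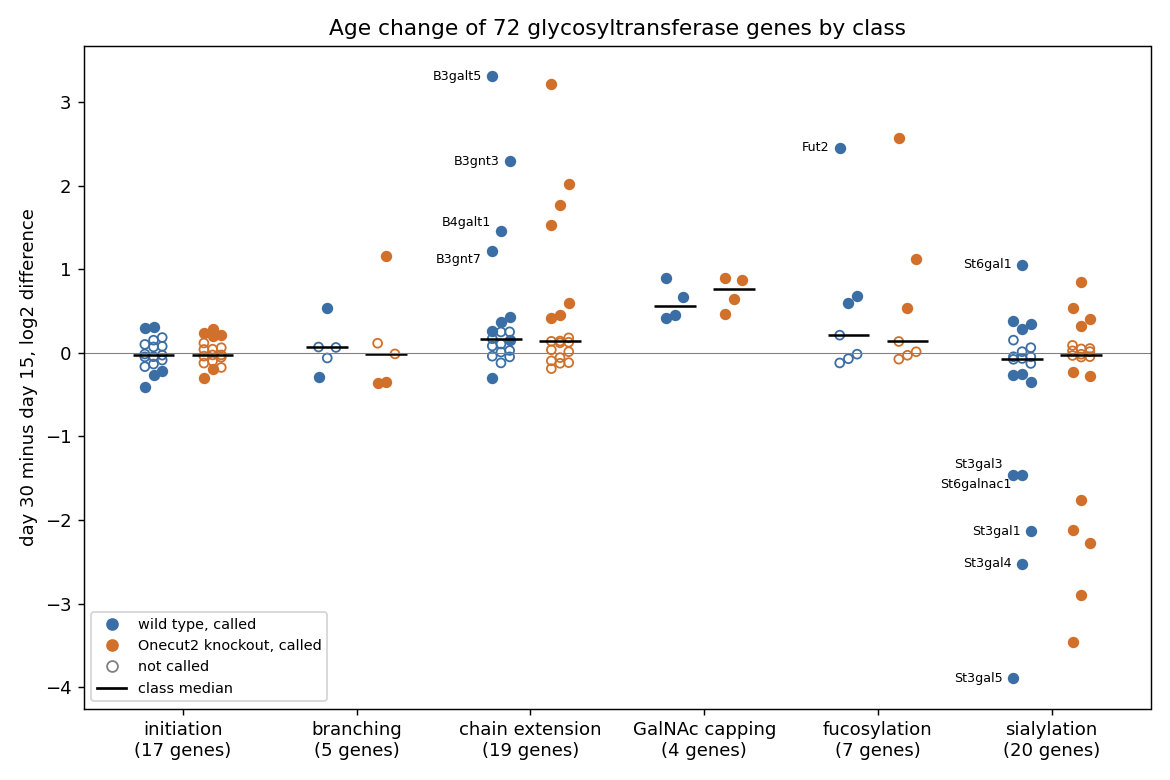
Log2 change from day 15 to day 30 of the 72 genes (points), by enzyme class, in wild type and in knockout mice, with called genes marked. Sialyltransferases reach from -3.90 (St3gal5) to 1.05 (St6gal1) in wild type, while the 4 N-acetylgalactosamine capping enzymes all lie above 0.

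By role, the 5 falls of at least 1 on the log2 scale were all in sialyltransferases, in each genotype. Of 20 sialyltransferases, 4 rose and 8 fell in wild type (beside 12.3% and 17.0% of all genes), with a median change of -0.07. In knockout mice 4 rose and 7 fell (beside 13.8% and 17.2% of all genes). Of the 6 St3gal genes, which place sialic acid on terminal galactose, 5 fell and 1 rose in each genotype, with median changes of -1.79 in wild type and -2.02 in knockout.

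St3gal5 encodes GM3 synthase, which starts the ganglioside series by sialylating lactosylceramide. Its log2 values were 11.07, 11.27 and 11.47 on the wild type arrays at day 15 and 7.24, 7.30 and 7.57 at day 30. On knockout arrays they were 10.64, 10.93 and 10.69 at day 15 and 7.33, 7.27 and 7.29 at day 30. The ages were far apart in both genotypes, with no overlap. The gene fell by 3.90 in wild type (SE 0.11, limma adjusted p = 1.6e-10), a 14.9-fold drop, and fell by 3.46 in knockout (SE 0.11, limma adjusted p = 6.3e-10), a drop of 11.0-fold.

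St3gal4 sialylates galactose on N-acetyllactosamine chains. It read 9.59, 9.70 and 9.90 in wild type at day 15 and 7.32, 7.18 and 7.11 at day 30. In the knockout it read 10.00, 10.24 and 10.21 at day 15 and 7.39, 7.26 and 7.11 at day 30. All day 30 arrays sat close together and below all day 15 arrays. The gene fell by 2.52 in wild type (SE 0.10, limma adjusted p = 3.1e-09) and by 2.89 in knockout (SE 0.10, limma adjusted p = 9.1e-10), or 5.75-fold and 7.44-fold.

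St3gal1, which sialylates the galactose of simple mucin-type chains, had values of 9.67, 9.92 and 10.04 in wild type at day 15 and 7.74, 7.75 and 7.74 at day 30. Knockout arrays had 10.10, 10.22 and 10.21 at day 15 and 8.08, 7.74 and 7.86 at day 30. Both genotypes were high on every day 15 array and low on every day 30 array. St3gal1 fell by 2.13 in wild type (SE 0.10, limma adjusted p = 9.3e-09) and fell by 2.28 in knockout (SE 0.10, limma adjusted p = 5.1e-09). A second, dimmer feature of St3gal1 did not follow it, with changes of -0.25 in wild type and 0.05 in knockout. With the mean of both features the falls were 1.19 and 1.12 and still passed.

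St3gal3, another sialyltransferase of terminal galactose, read 9.66, 9.61 and 9.62 in wild type at day 15 and 8.14, 8.23 and 8.14 at day 30. Knockout arrays read 9.81, 9.75 and 9.80 at day 15 and 8.27, 8.05 and 7.75 at day 30. The ages did not overlap, and the knockout arrays of day 30 were the more scattered. St3gal3 fell by 1.46 in wild type (SE 0.10, limma adjusted p = 2.7e-07) and fell by 1.76 in knockout (SE 0.10, limma adjusted p = 4.9e-08). St3gal2, a relative of St3gal1, fell by 0.26 and 0.23, and each of these small calls ended when single arrays were left out, with adjusted p up to 0.094 in wild type and 0.14 in knockout.

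St6galnac1 adds sialic acid to N-acetylgalactosamine at the root of mucin chains. Its wild type values were 10.20, 10.64 and 10.80 at day 15 and 8.86, 9.02 and 9.39 at day 30. Its knockout values were 11.01, 11.25 and 11.30 at day 15 and 9.08, 9.14 and 8.98 at day 30. Every day 30 array lay below every day 15 array. It fell by 1.46 in wild type (SE 0.15, limma adjusted p = 1.2e-05) and fell by 2.12 in knockout (SE 0.15, limma adjusted p = 4.6e-07). St6galnac2, which acts on the same kind of chain, fell by 0.26 and 0.28.

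The sialyltransferases that rose were St6gal1, St3gal6, St8sia4 and St8sia6. St6gal1, the main enzyme that links sialic acid to the ends of N-glycans, read 6.97, 7.19 and 7.16 in wild type at day 15 and 8.10, 8.05 and 8.32 at day 30. Knockout arrays read 7.04, 6.94 and 6.98 at day 15 and 7.76, 7.92 and 7.84 at day 30. The day 30 arrays were all higher, opposite in direction to the falls of St3gal5, St3gal4, St3gal1 and St3gal3. The rise was 1.05 in wild type (SE 0.08, limma adjusted p = 8.8e-07) and 0.85 in knockout (SE 0.08, limma adjusted p = 5.6e-06). St6gal1 is also a gene of B lymphocytes, and the B and plasma cell list rose with age on the same arrays, from 6.49 to 6.62 up to 7.96 to 8.07 in wild type; their part in the rise of St6gal1 was not tested. St8sia4, a polysialyltransferase also present in lymphocytes, rose by 0.35 and 0.32, and St8sia6 rose by 0.29 and 0.54. The wild type call of St8sia6 ended without wild type replicate 2 or 3 of day 15 or replicate 2 of day 30, with adjusted p up to 0.10.

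**Figure D2:**
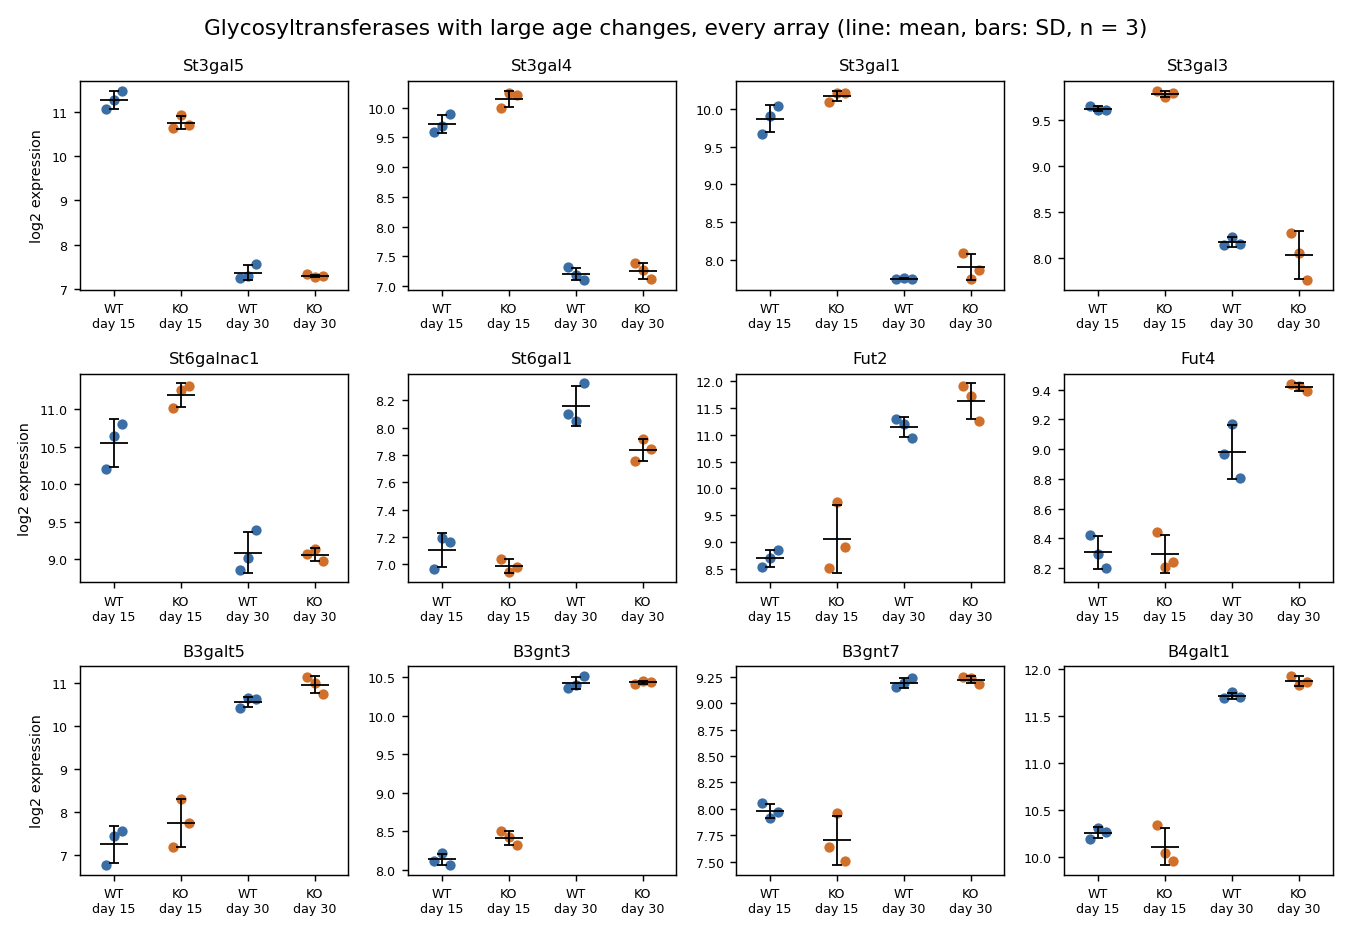
Log2 value on each of the 12 arrays for 12 glycosyltransferases, with the group mean as a line and the SD (n = 3) as bars; the horizontal axis gives genotype and postnatal day. St3gal5, St3gal4, St3gal1, St3gal3 and St6galnac1 drop from day 15 to day 30 in both genotypes, and the other 7 genes rise.

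Of 7 Fut genes, 3 rose in each genotype, beside 12.3% and 13.8% of all genes, and 4 did not pass in either. None fell (limma; the median changes were 0.21 in wild type and 0.14 in knockout). At an unadjusted p under 0.05 the counts passing in either direction were 4 in wild type and 3 in knockout.

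Fut2, the secretor-type fucosyltransferase that places fucose on terminal galactose, read 8.53, 8.70 and 8.85 in wild type at day 15 and 11.30, 11.20 and 10.94 at day 30. The knockout read 8.52, 9.76 and 8.91 at day 15 and 11.91, 11.72 and 11.26 at day 30. The ages were separate in both genotypes, although knockout replicate 2 of day 15 stood well above the other arrays of its age. The rise was 2.45 in wild type (SE 0.25, limma adjusted p = 9.2e-06) and 2.57 in knockout (SE 0.25, limma adjusted p = 6.4e-06), or 5.47-fold and 5.94-fold.

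Fut4, which fucosylates inner N-acetylglucosamine and makes Lewis-type structures, read 8.42, 8.29 and 8.20 in wild type at day 15 and 8.97, 9.17 and 8.81 at day 30. In the knockout it read 8.44, 8.21 and 8.24 at day 15 and 9.44, 9.43 and 9.39 at day 30. The genotypes overlapped at day 15, and at day 30 the knockout arrays were all the higher. It rose by 0.68 in wild type (SE 0.09, limma adjusted p = 1.0e-04) and by 1.12 in knockout (SE 0.09, limma adjusted p = 1.5e-06). Fut8, which puts fucose on the core of N-glycans, rose by 0.60 and 0.53. Fut7, a fucosyltransferase of selectin ligands, had changes of 0.21 and 0.14 that did not pass, and the Lewis-type enzyme Fut9 had -0.02 and 0.01.

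Chain extension rose more often than it fell. Of 19 genes, 8 rose and 1 fell in wild type (beside 12.3% and 17.0% of all genes), with a median change of 0.17. Among these rises that of B3gnt8 was small, at 0.16 (limma adjusted p = 0.048). Its call ended without any 1 of 10 arrays (all but knockout replicates 2 and 3 of day 30), with adjusted p up to 0.15. In the knockout 7 rose and 0 fell by limma (beside 13.8% and 17.2% of all genes), with a median change of 0.14. At an unadjusted p under 0.05, 9 changed in either direction. B3galt5, the galactosyltransferase that makes the chain type on which Lewis a and b antigens are built, read 6.75, 7.43 and 7.55 in wild type at day 15 and 10.41, 10.63 and 10.61 at day 30. In the knockout it read 7.18, 8.30 and 7.73 at day 15 and 11.13, 10.99 and 10.73 at day 30. The day 15 arrays were scattered, with knockout replicate 2 again the highest, yet every day 30 array was far above them. The rise of 3.31 in wild type (SE 0.25, limma adjusted p = 6.6e-07) and of 3.22 in knockout (SE 0.25, limma adjusted p = 7.8e-07) was the largest among the 72 genes in each genotype, at 9.93-fold and 9.30-fold.

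B3gnt3 adds N-acetylglucosamine to mucin-type chains and so extends them. It read 8.12, 8.21 and 8.06 in wild type at day 15 and 10.36, 10.40 and 10.52 at day 30. In the knockout it read 8.50, 8.42 and 8.32 at day 15 and 10.41, 10.44 and 10.44 at day 30. The arrays of each group lay close together and the ages were far apart. The gene rose by 2.29 in wild type (SE 0.06, limma adjusted p = 1.5e-10) and by 2.02 in knockout (SE 0.06, limma adjusted p = 6.3e-10).

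B3gnt7, an N-acetylglucosaminyltransferase of keratan-sulfate-type chains, read 8.05, 7.92 and 7.97 in wild type at day 15 and 9.15, 9.19 and 9.24 at day 30. Knockout arrays read 7.64, 7.96 and 7.50 at day 15 and 9.25, 9.24 and 9.19 at day 30. Day 30 was higher on every array. The rise was 1.22 (SE 0.09, limma adjusted p = 7.8e-07) in wild type and 1.53 (SE 0.09, limma adjusted p = 1.1e-07) in knockout.

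B4galt1, the main galactosyltransferase of N-acetyllactosamine, read 10.19, 10.31 and 10.26 in wild type at day 15 and 11.70, 11.76 and 11.70 at day 30. In the knockout it read 10.33, 10.04 and 9.95 at day 15 and 11.93, 11.84 and 11.86 at day 30. Neither genotype showed overlap between ages. It rose by 1.46 in wild type (SE 0.08, limma adjusted p = 6.9e-08) and by 1.77 in knockout (SE 0.08, limma adjusted p = 1.2e-08). B4galt3 rose by 0.43 and 0.46. B4galt5, one of the lactosylceramide synthases that make the substrate of St3gal5, rose by 0.26 and 0.60, and the wild type call ended without replicate 1 of day 15 or replicate 1 or 3 of day 30, with adjusted p up to 0.070. B3galt4, which galactosylates gangliosides, rose by 0.37 in wild type and changed by 0.01 in knockout. The difference between these changes was -0.35 and did not pass (limma adjusted p = 0.34). B3gnt5, which starts lacto-series glycolipids, rose by 0.41 in knockout and changed by 0.17 in wild type. Here the difference was 0.24 and did not pass (limma adjusted p = 0.60). B3galt1 fell by 0.30 in wild type, a call that ended without single wild type arrays (replicate 1 or 3 of day 15, replicate 1 or 2 of day 30) with adjusted p up to 0.15.

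All 4 B4galnt genes rose in both genotypes, beside 12.3% and 13.8% of all genes, with median changes of 0.56 in wild type and 0.76 in knockout. B4galnt3, which caps chains with N-acetylgalactosamine to give the LacdiNAc unit, rose by 0.90 in each (SE 0.07, limma adjusted p = 6.8e-07). B4galnt2, the enzyme of the Sda antigen, which is made on a sialylated chain end, rose by 0.67 and 0.87. B4galnt1, the GM2 synthase downstream of St3gal5, rose by 0.46 and 0.65, and the wild type call ended without wild type replicate 3 of day 15 (0.35, limma adjusted p = 0.060). B4galnt4, which also makes LacdiNAc, rose by 0.41 and 0.47. Around GM3 synthesis the other genes did not share one direction: B4galt5 and B4galnt1 rose while St3gal5 fell, and B4galt6, the other lactosylceramide synthase, had changes of -0.04 and -0.19 that did not pass.

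Initiation genes passed about as often as all genes, at 29.4% in wild type (29.3% of all genes) and 35.3% in knockout (31.0%). Of 17 Galnt genes, which attach the first N-acetylgalactosamine to serine or threonine, 2 rose and 3 fell in wild type, with a median change of -0.03. In the knockout 4 rose and 2 fell, with a median of -0.02. The changes in wild type lay between -0.40 (Galnt18) and 0.31 (Galnt4). Of 5 Gcnt genes, Gcnt3, which forms the branched cores of mucin chains, rose by 0.54 in wild type and more, by 1.16, in knockout. Gcnt2, the branching enzyme of the I antigen, fell by 0.29 and 0.34, and its wild type call ended without wild type replicate 2 of either day, with adjusted p up to 0.051. Gcnt4, a branching enzyme related to Gcnt3, changed by -0.06 in wild type and fell by 0.36 in knockout. These 2 changes of Gcnt4 were not shown to differ.

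Both age tests use the same estimate of the spread, taken from all 12 arrays, so they are not independent. The age comparison in the knockout contrasts other arrays than that in wild type. There 34 of the 72 genes (47.2%) passed, against 31.0% of all genes, with 23 higher (against 13.8% of all genes) and 11 lower (against 17.2%). The ages did not overlap for 37 of the 72 genes, beside 42.8% of all genes. Changes of at least 1 in size were found in 12 genes (16.7%), against 2.31% of all genes. In both genotypes 28 genes passed, 19 higher and 9 lower, with 0 of opposite direction. These were 80.0% of the wild type calls and 82.4% of the knockout calls, beside 75.1% and 71.1% for all genes. By class, the shared calls were 11 sialyltransferases (4 higher, 7 lower), 6 extension genes, all 4 capping genes and 3 fucosyltransferases (all higher), 2 initiation genes and 2 branching genes.

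The other 31 genes passed in neither age comparison, with changes between -0.13 and 0.25 in wild type and between -0.19 and 0.18 in knockout. They were 9 extension genes, 8 initiation genes, 8 sialyltransferases, 4 fucosyltransferases and 2 branching genes, and 23 of them lay in the lower 50% of gene means, where a change is harder to see. Among them were St8sia1, the GD3 synthase that follows St3gal5 in ganglioside synthesis, B3gnt6, the enzyme of the mucin core made in the gut, and Gcnt1, a branching enzyme of mucin chains with changes of 0.07 and 0.12. None of the 31 passed a genotype comparison by limma.

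Class means per array are given as a description. Over the 20 sialyltransferases the mean log2 value was 7.96 in wild type at day 15 and 7.44 at day 30, and 7.90 and 7.36 in knockout. The 7 fucosyltransferases went from 7.48 to 8.01 in wild type and from 7.52 to 8.13 in knockout, while the 19 extension genes rose in mean to 8.08 from 7.56 in wild type and to 8.13 from 7.60 in knockout. The 17 initiation genes averaged 8.27 and 8.25 in wild type. Levels of dim genes flatten near background, and 35 of the 72 genes lay in the lower 50% of gene means. Of the 37 in the upper 50%, 24 (64.9%) passed in wild type and 28 (75.7%) in knockout, beside 42.4% and 46.4% of all genes there.

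The genes that feed and empty these pathways were listed too. The shares of all genes to read their counts against are 12.3% higher and 17.0% lower in wild type, and 13.8% and 17.2% in knockout. Of 6 fucose supply genes, 3 rose in wild type and 4 in knockout. Gmds, the first enzyme of the route from GDP-mannose to GDP-fucose, rose by 1.43 in wild type (SE 0.07, limma adjusted p = 1.0e-08) and by 1.47 in knockout (limma adjusted p = 7.6e-09). Gfus, which completes GDP-fucose, rose by 0.25 and 0.35, and Slc35c1, its Golgi transporter, by 0.30 and 0.31.

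Of 6 sialic acid supply genes, 3 rose and 2 fell in each genotype. Cmah, which converts one form of activated sialic acid into its hydroxylated form, rose by 0.84 and 0.71, and Cmas, which activates sialic acid, by 0.40 and 0.34. Slc35a1, which carries activated sialic acid into the Golgi, fell by 0.46 and 0.57, and Nanp by 0.32 and 0.36. So the supply genes did not share the direction of the St3gal genes.

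Glycan removal fell. Of 11 genes, 7 fell in wild type and 8 in knockout, with 0 higher by limma; 8 and 9 genes passed an unadjusted p under 0.05 in either direction. Npl, which breaks down free sialic acid, fell by 3.60 in wild type (SE 0.13, limma adjusted p = 1.6e-09) and fell by 2.98 in knockout. The lysosomal sialidase Neu1 fell by 1.28 and 1.81, and the lysosomal galactosidase Glb1 by 0.91 and 1.33. Of 11 mucins and other carriers, 7 rose in wild type, among them Muc5ac by 1.85 and Muc4 by 1.70, and in knockout 6 rose and 1 fell.

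Of 15 genes of hexose and hexosamine donor supply, 7 rose and 5 fell in each genotype, with Slc35d1 rising by 0.72 and 0.94 and Uap1l1 falling by 1.50 and 1.58. Of 10 sulfation genes, 2 rose in each, and Chst4, which sulfates N-acetylglucosamine, rose by 1.50 and 2.20. Of 21 other chain enzymes, 4 rose and 6 fell in wild type and 3 rose and 4 fell in knockout, where the share that passed (33.3%) was close to that of all genes (31.0%). Goblet cell markers averaged 11.29 to 11.38 on wild type arrays at day 15 and 11.44 to 11.53 at day 30. Their part in the rise of mucins and of mucin-chain enzymes was not tested.

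**Figure D3:**
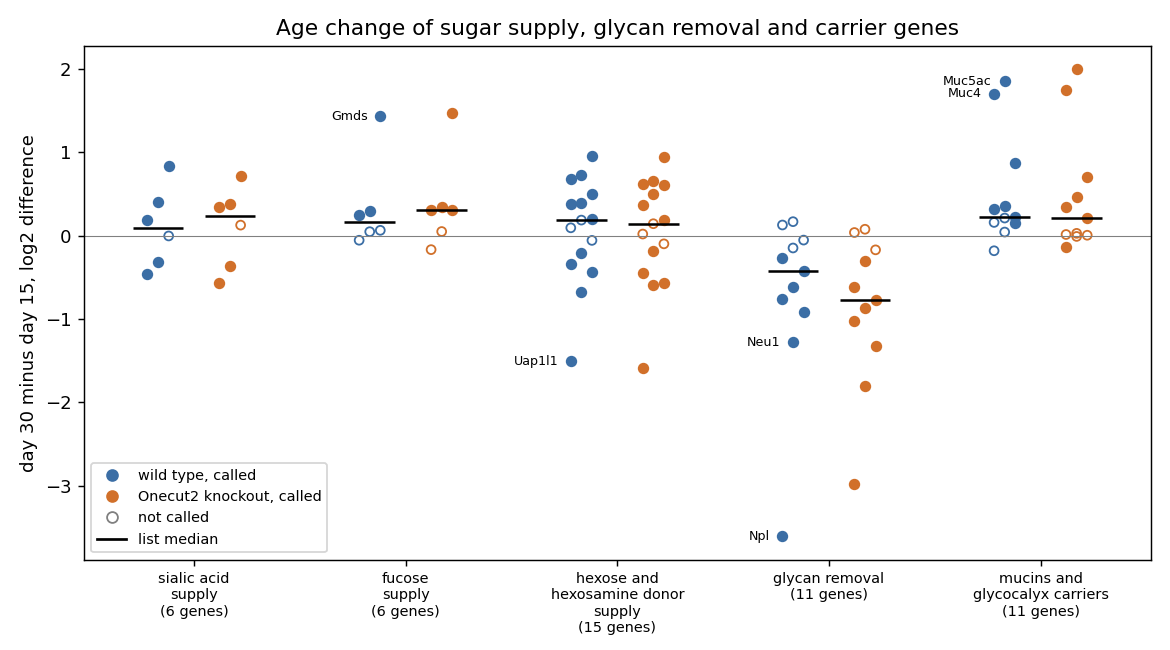
Log2 change from day 15 to day 30 of the genes of the supply, removal and carrier lists (points) in wild type and in knockout, by list. The called genes of the glycan removal list lie below 0, led by Npl at -3.60 in wild type, and fucose supply is led by Gmds at 1.43.

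The second comparison asked what the loss of Onecut2 changes at a given age. At day 15 the knockout had lower St3gal6, St3gal5, St8sia3 and Galnt17, and higher Gcnt4, St6galnac1, St3gal4, B4galnt3 and B3gnt3. These 9 genes are 12.5% of the 72, against 3.83% of all genes tested, 5 higher (1.81% of all genes) and 4 lower (2.03%). The genotypes did not overlap for 26 of the 72 genes, beside 21.3% of all genes. No fucosyltransferase passed (0 of 7 by limma, and 0 at an unadjusted p under 0.05), a count close to the 3.83% share of all genes. For Fut2 the difference was 0.36 (SE 0.25, limma adjusted p = 0.58). Among sialyltransferases 2 were higher and 3 lower, so the class did not move one way.

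St3gal6, which sialylates galactose on N-acetyllactosamine chains, is the gene with the ATTGAT match printed above for start 2. That string was in 2.78% of the windows found for the glycosyltransferases and in 7.54% of all windows, and binding there was not measured. St3gal6 read 10.06, 10.21 and 10.15 in wild type and 9.61, 9.58 and 9.46 in knockout at day 15. At day 30 it read 10.42, 10.55 and 10.59 in wild type and 9.95, 9.99 and 9.93 in knockout. At each age all knockout arrays were below all wild type arrays. The difference was -0.59 at day 15 (SE 0.06, limma adjusted p = 1.9e-04) and -0.56 at day 30 (SE 0.06, limma adjusted p = 3.4e-04). It rose with age alike in sign, by 0.38 in wild type and 0.41 in knockout, and the difference between these was 0.03 (SE 0.09, limma adjusted p = 0.97). St3gal6 passed at both ages under all 26 alternatives run, with day 15 values from -0.63 to -0.54 and day 30 values from -0.61 to -0.53.

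Gcnt4 read 9.51, 9.64 and 9.66 in wild type and 10.17, 10.19 and 10.18 in knockout at day 15. At day 30 it read 9.54, 9.53 and 9.56 in wild type and 9.84, 9.96 and 9.68 in knockout. The genotypes did not overlap at either age. The difference was 0.58 at day 15 (SE 0.07, limma adjusted p = 3.4e-04) and 0.28 at day 30 (SE 0.07, limma adjusted p = 0.058), which missed the threshold. The day 15 call held under all 26 alternatives, from 0.53 to 0.63.

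St8sia3, which adds sialic acid to sialic acid and is known from the nervous system, read 7.10, 7.15 and 6.95 in wild type and 6.54, 6.56 and 6.51 in knockout at day 15. At day 30 it read 6.73, 6.79 and 6.65 in wild type and 6.31, 6.45 and 6.71 in knockout, where the genotypes overlapped. It was lower by 0.53 at day 15 (SE 0.09, limma adjusted p = 0.0054). In RefSeq this gene lies next to Onecut2 on chromosome 18, with 0 protein-coding genes between them. The list of enteric neuron and glia markers averaged 7.27 to 7.50 on wild type arrays and 7.18 to 7.21 on knockout arrays at that age, with 1 of its genes higher and 1 lower by the test. Whether the deletion next to it or the share of nerve cells has a part in the value of St8sia3 was not tested.

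St3gal5 was lower in the knockout at day 15 by 0.52 (SE 0.11, limma adjusted p = 0.021), and all 3 knockout arrays given above were below all wild type arrays. Its call ended without knockout replicate 1 or 3 or wild type replicate 2 or 3 of that age, with adjusted p up to 0.090. St3gal4 was higher by 0.42 (SE 0.10, limma adjusted p = 0.034), a call that ended without knockout replicate 2 or 3 or wild type replicate 1 or 2, with adjusted p up to 0.15. So 2 genes that fell steeply with age differed in opposite directions between genotypes at day 15. At day 30, when both were low, their differences were -0.07 and 0.05 and did not pass.

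St6galnac1 was higher in the knockout at day 15 by 0.64 (SE 0.15, limma adjusted p = 0.039) with no overlap, and the call ended without any 1 of 7 arrays (knockout replicate 2 or 3 and wild type replicate 1 or 2 of day 15, knockout replicate 1 or 2 and wild type replicate 2 of day 30), with values from 0.46 to 0.68. B3gnt3 was higher by 0.28 (SE 0.06, limma adjusted p = 0.029), which ended without knockout replicate 1 or 2 or wild type replicate 1 or 3, with adjusted p up to 0.12. Neither gene differed between genotypes at day 30 by the test, with differences of -0.03 for St6galnac1 and 0.00 for B3gnt3.

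B4galnt3 read 8.46, 8.52 and 8.39 in wild type and 8.86, 8.73 and 8.63 in knockout at day 15, and 9.31, 9.36 and 9.41 against 9.69, 9.66 and 9.55 at day 30. The knockout arrays were higher at both ages. The difference was 0.29 at day 15 (SE 0.07, limma adjusted p = 0.036) and 0.28 at day 30 (SE 0.07, limma adjusted p = 0.060). Leaving out any 1 of 6 arrays (knockout replicate 1 or 2, any wild type array of day 15, or wild type replicate 2 of day 30) ended the day 15 call, with adjusted p up to 0.14. Galnt17 read 6.73, 6.69 and 6.89 in wild type and 6.49, 6.51 and 6.47 in knockout at day 15, and 6.54, 6.54 and 6.58 against 6.52, 6.31 and 6.48 at day 30. The knockout arrays were the lower at both ages. The day 15 difference of -0.28 (SE 0.07, limma adjusted p = 0.037) was lost without any single array of day 15 but wild type replicate 2, or without any wild type array of day 30, with adjusted p up to 0.15.

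**Figure D4:**
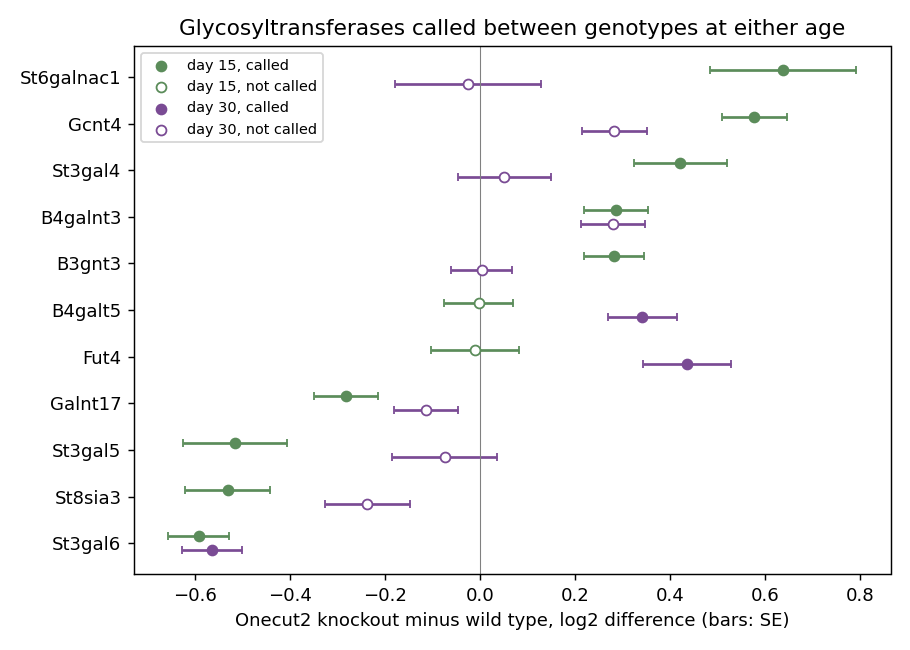
Knockout minus wild type log2 difference (points) with its standard error (bars) at day 15 and day 30 for the 11 glycosyltransferases that passed at either age. St3gal6 lies near -0.6 at both ages, at -0.59 and -0.56, and Gcnt4 at 0.58 and 0.28.

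The smooth muscle list moved with genotype at day 15, from 10.57 to 10.65 on wild type arrays to 10.30 to 10.48 on knockout arrays, with 1 of its 10 genes passing and a median of -0.19. With its mean per array as a covariate, 2 of the 9 calls were left, Gcnt4 (0.63) and St3gal6 (-0.57). The other differences kept their sign, at -0.63 for St8sia3, -0.54 for St3gal5, 0.41 for St3gal4 and 0.85 for St6galnac1. For B4galnt3, B3gnt3 and Galnt17 they were 0.27, 0.23 and -0.28. The standard errors of all these differences were larger in that fit, from 0.11 to 0.25. The slope of the covariate rests on scatter within the groups, so the fit cannot tell smooth muscle and genotype apart. The mean of the suckling enterocyte list moved too, from 10.53 to 10.87 up to 11.56 to 11.67. There 2 of 4 genes passed, with differences from 0.22 to 2.23 and a median of 0.59. On the weaned enterocyte list 1 of 3 genes was higher and 1 lower. The Paneth cell list went from 9.16 to 9.43 up to 10.61 to 10.84, with 6 of 6 genes higher. The part of these cells or states in the genotype differences at day 15 was not tested.

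At day 30 the genotype comparison called 3 of the 72 genes (4.17%, against 1.98% of all genes), with St3gal6 lower (0.943% of all genes) and Fut4 and B4galt5 higher (1.04%) in the knockout. The genotypes did not overlap for 19 of the 72 genes, beside 15.4% of all genes. The Paneth cell list differed at this age too, at 10.65 to 10.68 on wild type and 11.20 to 11.37 on knockout arrays, with 4 of 6 genes higher, and its part was not tested. Fut4, with the values given above, was higher by 0.44 (SE 0.09, limma adjusted p = 0.030). B4galt5 read 9.45, 9.55 and 9.58 in wild type and 9.42, 9.56 and 9.59 in knockout at day 15, which overlapped. At day 30 it read 9.85, 9.63 and 9.87 in wild type and 10.11, 10.13 and 10.13 in knockout, without overlap. Its difference at day 30 was 0.34 (SE 0.07, limma adjusted p = 0.030). The call of Fut4 ended without any knockout array or wild type replicate 1 or 3 of day 30, and that of B4galt5 without any knockout array or wild type replicate 2 of day 30, with adjusted p up to 0.13 and 0.11. In the comparison of ages, the difference between the genotypes' changes was 0.45 for Fut4 (limma adjusted p = 0.24) and 0.34 for B4galt5 (limma adjusted p = 0.25), so neither change was shown to depend on genotype.

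**Figure D5:**
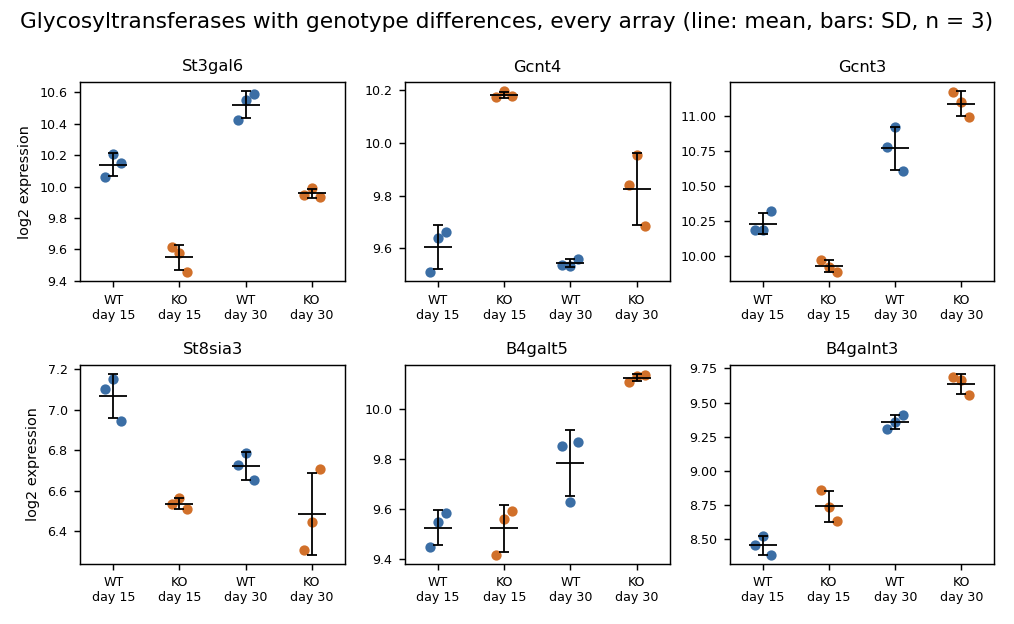
Log2 value on each of the 12 arrays for St3gal6, Gcnt4, Gcnt3, St8sia3, B4galt5 and B4galnt3, with the group mean as a line and the SD (n = 3) as bars; the horizontal axis gives genotype and postnatal day. The knockout arrays of St3gal6 lie below the wild type arrays of the same age, and those of Gcnt3 lie below at day 15 and above at day 30.

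The third comparison set the age changes of the genotypes against each other. Of the 72 genes 1 passed, Gcnt3 (1.39%, against 0.456% of all genes). It read 10.19, 10.19 and 10.32 in wild type and 9.97, 9.93 and 9.89 in knockout at day 15. At day 30 it read 10.78, 10.92 and 10.61 in wild type and 11.17, 11.10 and 10.99 in knockout. The knockout arrays were all the lower at day 15 and all the higher at day 30. The rise in the knockout was larger by 0.62 (SE 0.11, limma adjusted p = 0.032), while neither age alone passed, with differences of -0.30 (limma adjusted p = 0.052) and 0.32 (limma adjusted p = 0.063). The difference of the rises missed the threshold without any 1 of 9 of the 12 arrays (all but knockout replicate 1 of day 15, knockout replicate 3 and wild type replicate 2 of day 30), with values from 0.54 to 0.64 and adjusted p up to 0.092.

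For the other leading genes, the age changes of the genotypes were not shown to differ. The knockout-minus-wild-type differences in change were 0.44 for St3gal5 (SE 0.16, limma adjusted p = 0.37), -0.37 for St3gal4 (SE 0.14, limma adjusted p = 0.42), -0.66 for St6galnac1 (SE 0.22, limma adjusted p = 0.31), -0.28 for B3gnt3 (SE 0.09, limma adjusted p = 0.30) and 0.12 for Fut2 (SE 0.35, limma adjusted p = 0.97). For Fut2, a difference of the size seen for Gcnt3 is less than 2 SE, so it was not detectable with these arrays.

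Around the glycosyltransferases, genotype differences were found in several lists besides glycan removal. At day 15, 3 of 11 mucins and carriers passed (27.3%, 2 higher and 1 lower). So did 4 of 21 other chain enzymes (19.0%, 3 higher and 1 lower) and 1 of 6 fucose supply genes (16.7%, higher), against 3.83% of all genes. Of the 11 removal genes, 6 were higher in the knockout at day 15 (1.81% of all genes), and at day 30 1 was higher (1.04%) and 1 lower (0.943%). The mean of the suckling enterocyte list was higher in the knockout at day 15 as well, at 11.56 to 11.67 against 10.53 to 10.87. Of its 4 genes 2 passed, with a median difference of 0.59, and the part of this list in these differences was not tested. Npl averaged 11.36 ± 0.28 in wild type and 12.28 ± 0.20 in knockout at day 15 (SD, n = 3 arrays), and 7.76 ± 0.02 and 9.30 ± 0.13 at day 30. It was higher by 0.91 (limma adjusted p = 0.0014) and by 1.54 (limma adjusted p = 2.9e-05). Glb1 was higher by 0.56, and Neu1 and Hexa by 0.40, at day 15. Gmds was higher at both ages, by 0.28 (limma adjusted p = 0.034) and 0.32 (limma adjusted p = 0.025). Among other chain enzymes, Mgat4c, a branching enzyme family member of N-glycans, was higher by 1.27 at day 15 and Ugcg, the glucosylceramide synthase at the start of the glycolipids, by 0.38, while A4gnt, an enzyme of gastric-type mucin chains, was lower by 0.68. Of the 7 markers of stomach and Brunner glands, 3 were lower at day 15 too, and their part in the value of A4gnt was not tested.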

How the data were processed

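Total RNA of pooled duodenal segments was hybridised to 12 Affymetrix mouse whole-transcript gene arrays, 3 in each of 4 groups. The authors deposited log2 expression values, which Affymetrix Expression Console 1.1 computed by RMA, per the submitters' processing notes. RMA corrects background, equalises the distributions of the arrays and summarises probes, so a change shared by most genes is removed, and changes of very dim or very bright genes are understated. The log base was taken as 2 from that method and the range of values. The sources used here name no genome build for the array's features.

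Of 35557 features, 21789 carried 1 gene symbol, 1621 several and 12147 none. The feature with the highest mean was kept for the 999 genes with over 1 (Fut11 and St3gal1 among the glycosyltransferases), which left 19938 genes. All 72 glycosyltransferases were matched to RefSeq by Entrez ID. A model of 4 group means was fitted to all 12 arrays with limma 3.58.1 under R 4.3.3 (8 residual degrees of freedom, eBayes at default settings). P-values were adjusted by Benjamini-Hochberg over all genes and called under 0.05. Errors of changes are moderated standard errors (SE). The code was tested on simulated data. The number of arrays limits the precision.

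The genes and lists were chosen with earlier results of these data known. Values of every array are given for glycosyltransferases called with an age change of at least 1 or in a genotype comparison, and for Fut2, St6gal1 and St3gal5. Of the pathway lists, up to 4 called genes with the smallest p in a comparison were named, and in places others beside them. Alternatives covered eBayes settings, filters on dim genes, feature choice, normalization, samples in the fit, array weights, the replicate number, single arrays left out, a stricter threshold, and Xist or smooth muscle as a covariate. Tables and figures were made with Python version 3.11.15, pandas 2.3.3 and matplotlib 3.10.9.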

Additional observations from a re-analysis of the deposited data

Results flagged for a closer look

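Gcnt3 stood out because its age change differed between the genotypes by a test of that difference. Its rise from day 15 to day 30 was 0.54 in wild type (SE 0.08) and 1.16 in knockout (SE 0.08), and the difference was 0.62 (SE 0.11, limma adjusted p = 0.032). The call was lost in 11 of 24 alternatives, with values between 0.54 and 0.69 and a highest adjusted p of 0.24.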

How the results depend on the processing

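No called change reversed its direction under any alternative run. Calls held under all alternatives for 23 of 35 genes in the wild type age comparison, 29 of 34 in the knockout age comparison, 2 of 9 in the genotype comparison at day 15 (Gcnt4 and St3gal6), 1 of 3 at day 30 (St3gal6) and 0 of 1 in the difference of age changes (limma; 14 genes at an unadjusted p under 0.05). At day 15 the 9 genotype calls became 4 with only the 2 groups compared and 4 with Xist as a covariate. They became 2 with smooth muscle as a covariate and 3 at an adjusted p under 0.01. The 7 differences lost with smooth muscle kept their sign, with larger standard errors, and that fit cannot tell muscle and genotype apart. At day 30 the 3 calls became 7 with an eBayes trend, 6 and 8 with filters at the 25th percentile and the median, 5 with arrays centred on their medians, 9 with array weights, 1 with only the 2 groups and 1 at an adjusted p under 0.01. The difference of age changes called 0 genes with Xist as a covariate (limma; 7 at an unadjusted p under 0.05) and 0 at an adjusted p under 0.01 (limma; 14 unadjusted under 0.05). Leaving out single arrays gave 29 to 36 calls in wild type, 30 to 35 in knockout, 4 to 11 at day 15 (4 or 5 without knockout replicate 2 or 3 or any wild type array of that age), 1 to 4 at day 30 (1 without knockout replicate 1 or 2) and 0 to 1 for the difference (limma; 10 to 13 unadjusted under 0.05). With a replicate block the counts were 34, 33, 7, 3 and 1. Deviations from group means correlated between -0.25 and 0.36 for same-numbered arrays of different groups. For arrays of other numbers the correlations lay between -0.36 and 0.37. These ranges do not settle whether the numbers pair the arrays. Xist fell by 1.03 with age in wild type and changed by -0.0047 in knockout. The wild type arrays read 11.37, 10.25 and 10.93 at day 15 and 9.26, 10.67 and 9.53 at day 30, so the ages overlapped. With Xist as a covariate the wild type age comparison called 25 genes, 18 higher and 7 lower (3829 in place of 5849 over all genes). Over all genes, the 764 calls at day 15 became 104 with smooth muscle as a covariate, 480 with only the 2 groups, 1218 with array weights, 296 at an adjusted p under 0.01 and 340 to 782 without single arrays, the 395 at day 30 became between 171 and 617 over all alternatives, and the 91 of the difference between 33 and 177. The cause of these shifts was not tested. Dim features limit what can be seen for the 35 genes in the lower 50% of means.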
